A study of Mus musculus with 250 samples.

Results

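Stefin A1 (Stfa1) reads divided the wound bed cells of mouse tail epidermis nearly evenly. Of 85 wound bed cells, 47 held at least 1 Stfa1 read and are called Stfa1-positive here, and 38 held none and are called Stfa1-negative. The whole series had 250 cells. On average, Stfa1-positive cells carried more Krt10, Krt2, Csta1, Cstdc5 and Serpinb3b RNA. Stfa1-negative cells carried more Krt15 and more of a group of upper hair follicle genes led by Krt79. Mean Krt2 and Serpinb3b stood well above negative cells only where 10 or more Stfa1 reads were present, and median Krt10 was high only there. Cstdc5 transcripts share sequence with Stfa1, so the Cstdc5 difference is not independent of the classes. The cells were selected on their Stfa1 reads, so Stfa1 levels are given as a description only.

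The animals were Lrig1CreER/Rosa-TdTomato mice, in which the Lrig1 promoter drives the inducible Cre that switches on the TdTomato label. The labels call them Lrig1 GL Sca1+ epidermal cells (population L1 Sca-1+), sorted to enrich for the upper hair follicle, with a time of 8 weeks written as 8w_pw1, whose second element is not spelled out. All 250 cells share this genotype, sort and time. They came from the wound bed (85 cells), a distal memory region (81 cells) and a control region without memory (84 cells), each in 2 batches, and each plate held 1 region and 1 batch. Libraries were made by Smart-Seq2, which reads whole transcripts of sorted single cells and marks no molecules. The labels name no animal, so each side of each batch is 1 sample, no test between the sides was run, and the repeat of a difference in both batches is the check reported. Animal, plate and batch cannot be told apart. Although the sort was meant for the upper follicle, reads of its genes Krt79 or Gata6 were present in 16 of the 85 wound bed cells and reads of the suprabasal keratin gene Krt10 in 68. Lrig1 reads were present in 1.

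Stefins, or type 1 cystatins, are small cytosolic proteins that block cysteine proteases such as the cathepsins. The mouse genome holds a cluster of stefin A genes that arose by duplication, and in skin they belong to the proteins of differentiating and inflamed keratinocytes. Keratinocytes of the basal layer make Krt5, Krt14 and Krt15, switch to Krt1 and Krt10 as they move up, and in the upper hair follicle make Krt79 with the transcription factor Gata6.

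The stefin A genes lie side by side on chromosome 16 (GRCm38). Stfa1 spans 16:36277148-36285371 on the plus strand, in the cluster that runs from Csta1 (16:36119946-36131189, minus strand) to Stfa3 (16:36450537-36455392, minus strand), with Cstdc5 at 16:36359382-36367570 on the minus strand. The 120 bases before the RefSeq start of 4 of them (GRCm38.p6) are printed to show how alike genes that were read together (Stfa1, Cstdc5, Stfa3) and a gene that was hardly read (Stfa2) are at this place. They run 5′ to 3′ in the direction of the gene, and capitals mark TTTAAA, a motif picked after the sequences had been seen.
Stfa1 (chr16:36277028-36277147, plus strand): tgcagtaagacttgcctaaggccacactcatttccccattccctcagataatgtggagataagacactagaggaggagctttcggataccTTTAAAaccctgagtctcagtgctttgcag
Cstdc5 (chr16:36367571-36367690, minus strand): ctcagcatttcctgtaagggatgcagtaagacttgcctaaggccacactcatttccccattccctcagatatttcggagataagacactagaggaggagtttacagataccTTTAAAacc
Stfa3 (chr16:36455393-36455512, minus strand): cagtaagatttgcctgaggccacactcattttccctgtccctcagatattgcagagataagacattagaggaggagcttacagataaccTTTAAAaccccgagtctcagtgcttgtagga
Stfa2 (chr16:36408364-36408483, minus strand): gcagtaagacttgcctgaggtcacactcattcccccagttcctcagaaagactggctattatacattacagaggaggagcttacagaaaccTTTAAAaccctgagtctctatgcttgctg
Over the 250 bases before the start, the Stfa1 promoter had 96.1% identical bases with that of Cstdc5, 86.9% with that of Stfa3 and 82.9% with that of Stfa2, counted over the aligned bases. TTTAAA, which reads the same on both strands, ended 25 bases before the start of Stfa1, 26 before that of Stfa3, 24 before that of Stfa2 and 4 before that of Cstdc5. The motif occurred in 12.1% of all 32851 RefSeq promoters of this length. The TATA box letters TATAAA, which 12.4% of them held, and the AP-1 letters TGANTCA, which 6.75% held, were searched on both strands without a match in the 250 bases before any of the 9 stefin A genes with a RefSeq promoter. Stfa2 had reads in 1 of the 85 wound bed cells.

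The transcripts are alike as well, which bears on how far Stfa1 reads can be told from those of its neighbours. Of the 710 stretches of 31 bases in the GENCODE M21 transcripts of Stfa1, 39.01% also occurred in Cstdc5 and 19.7% in Cstdc6. Stfa3 shared none with any other gene of the cluster, and Csta1 shared 1.11% of its own. Reads of Stfa1, Cstdc5 and Cstdc6 are therefore uncertain between these genes where they fall on shared stretches. How the authors' counting divided them is not given in the sources used here.

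In batch 1, 17 of 30 wound bed cells were positive (56.7%, exact 95% interval 37.4 to 74.5%), and in batch 2, 30 of 55 (54.5%, 40.6 to 68.03%). Among distal cells the shares were 37.5% of 32 and 28.6% of 49, and among control cells 7.14% of 28 and 5.36% of 56. Intervals cover counting error only. Median depth was 58928 reads in positive and 32152 in negative cells of batch 1, a ratio of 1.83, and 39676 and 41206 in batch 2, a ratio of 0.963. The range was 3857 to 302292 reads per wound bed cell, and the sides overlapped throughout. With every cell thinned to 10000 reads, 14 of 29 cells (48.3%) and 23 of 49 (46.9%) were positive, which left out 1 negative cell in batch 1 and 1 positive and 5 negative cells in batch 2. In the control region the thinned counts were 0 of 28, which allows up to 12.3% by the exact interval, and 2 of 55.

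Stfa1 in the positive cells ran from 1 read to 439 (median 24) in batch 1 and from 1 to 283 (median 11.5) in batch 2. In CPM (reads of the gene scaled to 1000000 reads of the cell) the median was 306 with a highest value of 3987 in batch 1, and 585 with a highest of 6269 in batch 2. Just inside the threshold lay 1 cell with 1 read in batch 1 and 3 cells with 1 read in batch 2, and just outside it lay the cells with 0 reads. After thinning, 3 positive cells of batch 1 and 6 of batch 2 no longer held a Stfa1 read.

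**Figure D1:**
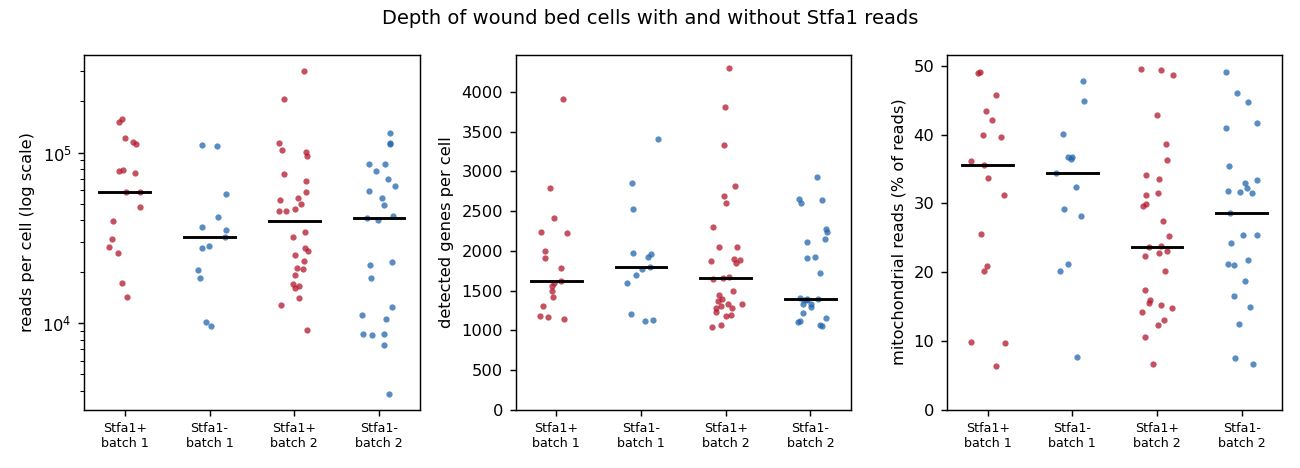
Reads per cell (log axis), detected genes per cell and the percentage of mitochondrial reads, by Stfa1 class and batch; each point is 1 cell and the bar is the median. The median of reads was higher on the positive side in batch 1 (58928 against 32152) and close in batch 2 (39676 against 41206), with wide overlap.

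Detected genes had a median of 1618 in positive and 1795 in negative cells of batch 1, and of 1655 and 1397 in batch 2. At 10000 reads these medians were 1077 and 1264.5, and 1239 and 1294. Mitochondrial reads had medians of 35.6% and 34.4% in batch 1 and of 23.7% and 28.6% in batch 2. Depth thus stood apart between the sides in batch 1 and hardly in batch 2, and its part in the batch 1 ratios was not tested.

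Genes were compared by the log2 ratio of mean CPM plus 10 in positive over negative cells, with each cell given equal weight, separately in each batch. A gene was considered where at least 10% of the cells of 1 side had a read in each batch, and it is called higher or lower where both batch ratios were at least 1 in that direction. Of 5488 genes considered, 251 (4.57%) were higher and 278 (5.07%) lower in positive cells. A further 489 genes (8.91%) reached the same size in opposite directions in the batches, so a gene that met the rule was about as frequent as one that contradicted itself. The median ratio of all considered genes was −0.21 in batch 1 and 0.08 in batch 2. With reads summed per side and scaled by TMM these medians were 0.05 and 0.13. The higher genes made up 47.4% of the called genes with equal weights and 67.7% with TMM, and 67.3% where log2 values were averaged over cells, which left 35 higher and 17 lower genes. The counts are therefore no measure of which side had more genes, and the text rests on the named genes.

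**Figure D2:**
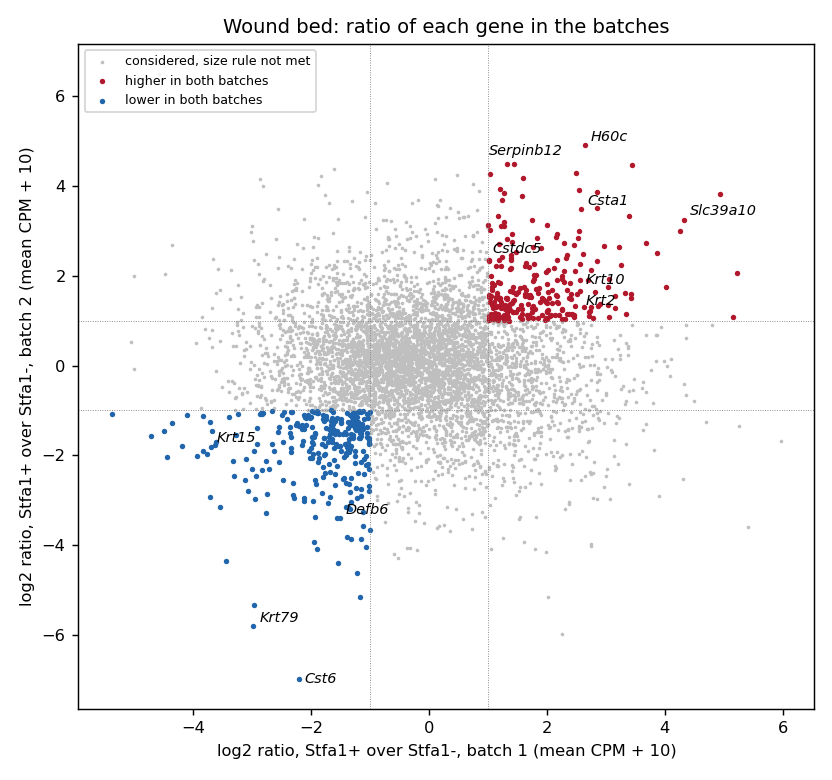
Log2 ratio of positive over negative wound bed cells in batch 1 (x axis) and batch 2 (y axis), 1 point per considered gene; dotted lines mark ratios of 1 and −1. The 251 red and 278 blue genes met the size in both batches, and 489 further genes reached it in opposite directions.

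The other stefins and cystatins came to 8 considered members, of which 5 had ratios above 0 in both batches and 2 below; among all considered genes those shares were 23.2% and 25.5%. Csta1 and Cstdc5 met the size as higher, and Cstb and Cst6 as lower. The median of the list was 1.26 and 0.92, or 0.78 and 0.92 with genes without reads on 1 side set at their bound. The list was drawn up with earlier results of these data known. Among the members above 0, Cstdc5 and Cstdc6 share 35.1% and 39.2% of their own 31-base stretches with Stfa1. Cstdc4 reached the 10% detection minimum through positive cells only. The count and the median of the list are therefore not independent of the classes.

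Csta1, another stefin A, was read mainly on the positive side. It had reads in 12 of 17 positive and 5 of 13 negative cells of batch 1, and in 23 of 30 and 4 of 25 of batch 2. Positive cells ran from 0 to 978 CPM with a median of 376 in batch 1, and from 0 to 2369 with a median of 277 in batch 2. Negative cells had a median of 0 in both batches, with highest values of 329 and 330. The log2 ratios were 2.58 and 3.49. At 10000 reads per cell 70.6% of positive and 25% of negative cells of batch 1 held a Csta1 read, and 68.97% and 10% in batch 2, so the gap was as wide at equal depth.

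Cstdc5, a stefin A-like gene of the same cluster, was read on both sides but at different levels. Positive cells had a median of 5329 CPM in batch 1 (0 to 27778) and of 4019 in batch 2 (0 to 35030). Negative cells had medians of 257 (0 to 7937) and 347 (0 to 5931). The ratios were 2.17 and 2.35, and the upper cells of the negative side overlapped the middle of the positive side. Since Cstdc5 shares stretches with Stfa1, this ratio and the classes are not independent.

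Stfa3, which shares no 31-base stretch with its neighbours, had a median of 2513 CPM in positive and 104 in negative cells of batch 1, and of 3176 and 970 in batch 2. Its ratios were 2.25 and 0.96, so it missed the size in batch 2. The negative side of batch 2 held the highest cell of all, at 37041 CPM. Cstdc6 had 17 reads in positive and 7 in negative cells of batch 1 and 26 and 2 in batch 2, and Cstdc4 had 6 and 0, then 24 and 2. Cstdc6 shares stretches with Stfa1, so its reads and the classes are not independent. Csta2 had 24 reads in 3 positive cells of batch 2 and none elsewhere. Stfa2l1 and Cst7, a cystatin of immune cells, had no read in any wound bed cell.

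The family members outside the cluster did not follow Stfa1. Cst3, the secreted cystatin C that most tissues make, had ratios of −0.78 and 0.44. Cstb, the ubiquitous stefin B, had means of 115 CPM in positive and 344 in negative cells of batch 1, and of 119 and 469 in batch 2, with ratios of −1.50 and −1.89. Its negative means leaned on few cells: the size was not met without the highest negative cell of each batch, nor with TMM. Cst6, the cystatin M/E of the cornifying epidermis and follicle opening, had means of 591 and 2773 CPM in batch 1 and of 146 and 19553 in batch 2. Its ratios were −2.21 and −6.97, but without the highest negative cell they were 1.76 and −6.01. Medians of Cst6 were 12.6 and 31.1 CPM in batch 1 and 0 on both sides in batch 2, so the difference lay in a few negative cells, the highest at 247570 CPM.

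Among cysteine cathepsins, the proteases that stefins inhibit, 6 were considered. Ctsc, the cathepsin C that activates serine proteases, met the size as higher (1.06 and 1.37). Ctsb, the lysosomal cathepsin B, met it as lower (−1.63 and −1.31), with means of 120 against 390 CPM and 395 against 994. Lgmn, the asparaginyl protease legumain, also met it as lower (−2.67 and −1.74), with 1 and 8 reads on the positive side. Ctsc missed the size under 9 of 20 alternatives and Ctsb under 5. The list had 2 members above 0 and 3 below 0 in both batches.

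**Figure D3:**
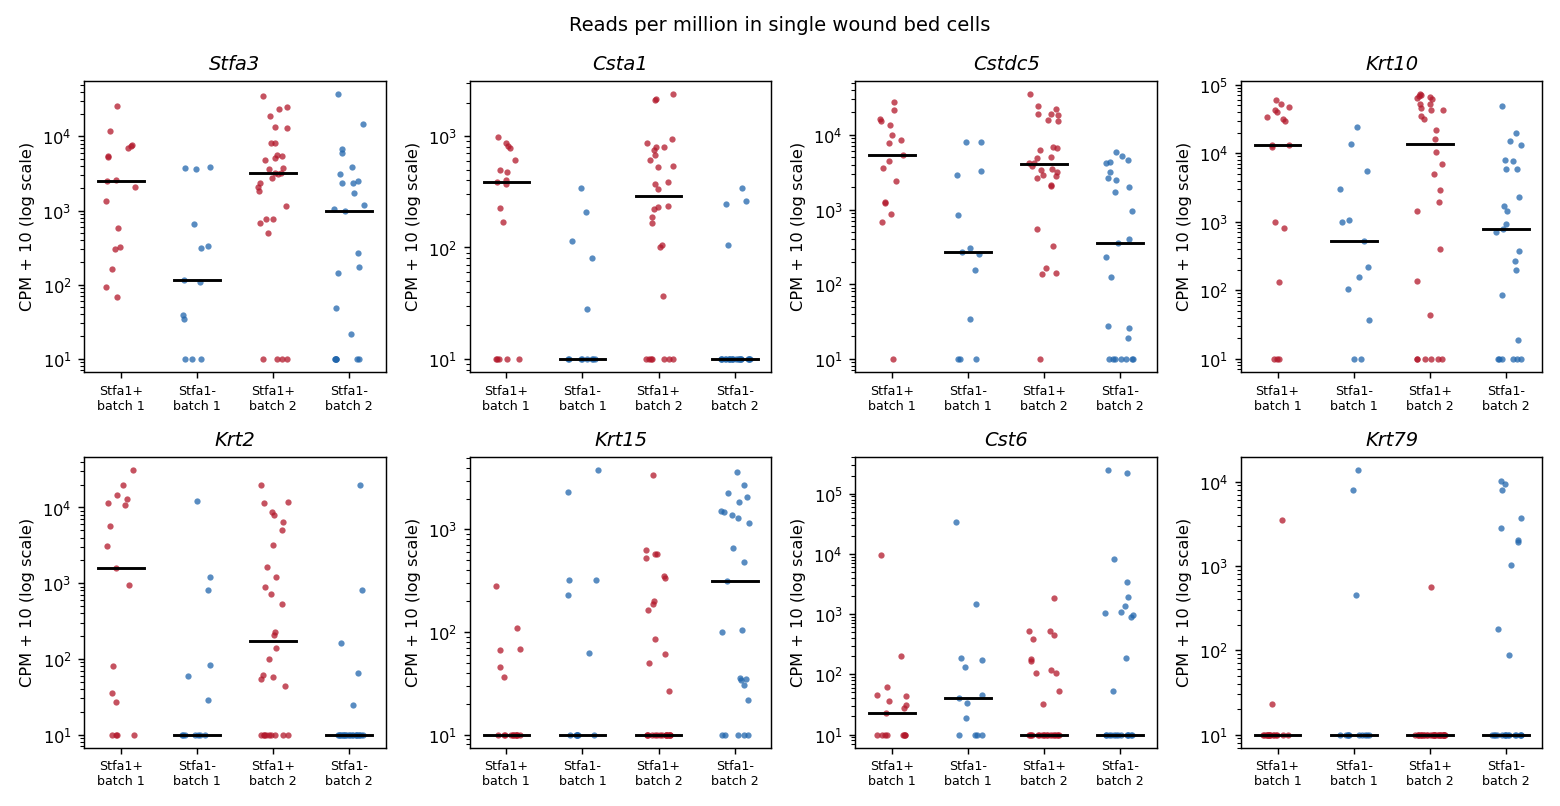
CPM plus 10 (log axis) of 8 genes in single wound bed cells by Stfa1 class and batch; each point is 1 cell and the bar is the median. Csta1 and Cstdc5 sit higher on the positive side in both batches, Krt10 and Krt2 have a dense upper group there, and the high cells of Cst6 and Krt79 lie mostly on the negative side.

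Krt10, the type I keratin of suprabasal cells, met the size as higher. Positive cells had a median of 13027 CPM in batch 1 (0 to 60004) and of 13412 in batch 2 (0 to 72593). Negative cells had medians of 513 (0 to 23816) and 778 (0 to 49191). The ratios were 2.56 and 2.27. Reads of Krt10 were present in 14 of 17 positive and 11 of 13 negative cells of batch 1, and in 24 of 30 and 19 of 25 of batch 2, so the sides differed in level and hardly in the share of cells with a read. Among cells with a Krt10 read the ratios were 2.60 and 2.20.

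Krt2, the type II keratin found in suprabasal cells of tail, ear and sole skin, had a median of 1561 CPM in positive cells of batch 1 and 164 in batch 2, and of 0 in negative cells of both. Reads were present in 13 of 17 against 6 of 13 cells and in 21 of 30 against 5 of 25. The ratios were 2.56 and 1.66. The negative side of batch 2 owed its mean of 843 CPM to 1 cell at 20051 CPM.

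Other suprabasal genes were less even. Krt1, the partner keratin of Krt10, had means of 1529 and 846 CPM in batch 1 and of 3561 and 232 in batch 2, with ratios of 0.85 and 3.88, short of the size in batch 1. Krtdap, a secreted protein of differentiating keratinocytes, had ratios of 0.09 and 0.67 and was read in 47 of 47 positive and 36 of 38 negative cells. Calml3, a calmodulin-like protein, met the size as lower (−1.57 and −1.16) and missed it under 8 of 20 alternatives. The suprabasal list had 8 of 18 considered members above 0 and 4 below 0 in both batches, with medians of −0.29 and 0.64, and reads summed per side gave −0.75 and 0.50. Summed over the list, positive cells had medians of 64097 and 60413 CPM and negative cells 23180 and 15284, a sum in which Krt10 weighs heavily. Among granular and cornified envelope genes, 6 were considered and Sprr1a, a cornified envelope precursor, met the size as lower (−2.97 and −5.33), with reads in 1 of 17 and 2 of 13 cells and in 5 of 30 and 7 of 25. Without the highest negative cell its batch 1 ratio was −0.76. Krt2 was the single considered gene of the list kept for tail scale.

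Basal genes leaned to the negative side with equal weights, though not with TMM and, in batch 1, not with thinned reads. Krt15, a keratin of basal and follicle cells, met the size with ratios of −3.70 and −1.81. It had a median of 306 CPM in negative cells of batch 2 (0 to 3629) and of 0 in positive cells (0 to 3362), with reads in 20 of 25 and 14 of 30. In batch 1 both medians were 0, and means were 540 and 32.3 CPM. Krt14 had medians of 611 and 2695 CPM in batch 1 and of 1762 and 3921 in batch 2, with ratios of −1.26 and −0.49, and Krt5 had ratios of −1.84 and −0.46. With TMM the batch 2 ratio of Krt14 was 0.13. Of 12 considered basal genes, 5 were below 0 in both batches and none above, with medians of −0.43 and −0.49. With reads summed per side and scaled by total reads the medians were −0.25 and −0.02, and with TMM-scaled sums 0.11 and 0.01. The direction thus changed with the way cells were weighted and scaled. With every cell thinned to 10000 reads the basal medians were 0.84 and −0.65, from fewer cells and with 3707 genes considered in all. Among cells with at least 20000 reads they were −0.23 and −0.20. The part of depth in these shifts was not tested.

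Krt10 and Krt2 levels were highest in the cells with the most Stfa1 reads. Cells with 10 or more Stfa1 reads (10 in batch 1 and 18 in batch 2) had a median Krt10 level of 32799 and 42429 CPM. Cells with 1 to 9 reads (7 and 12) had medians of 978 and 79.8 CPM, and cells with none 513 and 778. Mean Krt10 was higher in each further class of both batches, with 3767, 12871 and 28786 CPM, then 5341, 8939 and 37026. Mean Krt2 was 1113, 575 and 10818 CPM at 0, 1 to 9 and 10 or more reads in batch 1 and 843, 712 and 3991 in batch 2. Serpinb3b had means of 168, 187 and 1330 CPM in batch 1 and of 154, 160 and 871 in batch 2. Median Krt14 was 2695, 1318 and 312 CPM, then 3921, 5452 and 388.

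The stefins differed among themselves over these classes. Median Csta1 was 0, 606 and 371 CPM over the 3 classes of batch 1 and 0, 455 and 195 in batch 2. Median Cstdc5 was 257, 7845 and 4908 CPM, then 347, 3292 and 5683. Mean Cstdc5 was 1833, 6156 and 9740 CPM, then 1533, 4119 and 10361. Stfa3 was highest at 10 or more reads, with medians of 104, 1327 and 3851 CPM, then 970, 1941 and 3680. Medians of Csta1, Cstdc5 and Stfa3 thus stood above those of Stfa1-negative cells already at 1 to 9 reads in both batches, and that of Krt10 in batch 1 only. For Cstdc5, which shares stretches with Stfa1, levels and read classes are not independent. Median depth was 32152, 28047 and 77354 reads in these classes of batch 1 and 41206, 48500 and 27051.5 in batch 2, so the order of depth was not the same in the batches.

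**Figure D4:**
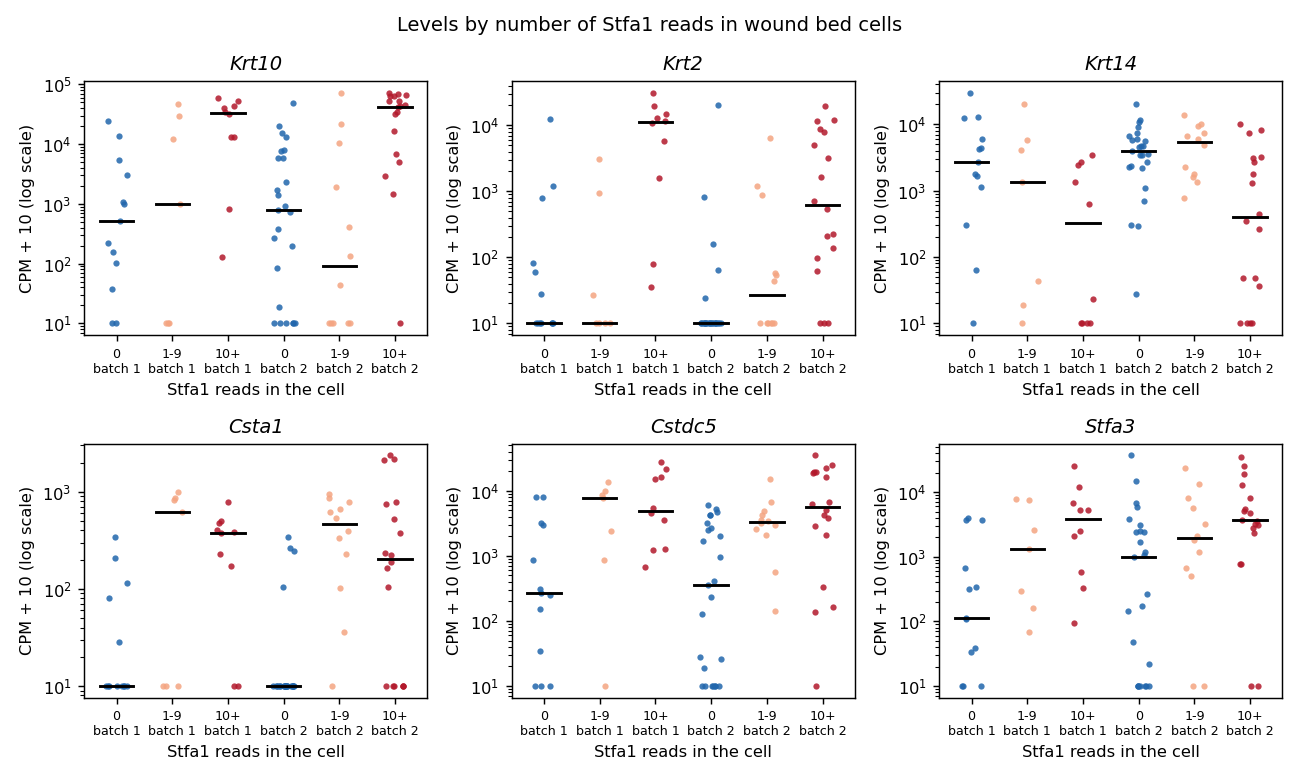
CPM plus 10 (log axis) of 6 genes in wound bed cells with 0, 1 to 9 or 10 or more Stfa1 reads, by batch; points are cells and bars are medians. Krt10 medians are high only at 10 or more reads (32799 and 42429 CPM), whereas Csta1 and Cstdc5 medians are already high at 1 to 9.

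Upper hair follicle genes had more calls than any other of the 24 lists. Of 8 considered, 6 met the size as lower (Krt79, Gata6, Cst6, Defb6 and Krt17 among them) and none as higher, and 7 were below 0 in both batches, with medians of −2.17 and −2.77. With genes without reads on 1 side set at their bound the medians were −2.26 and −3.17. Krt79, the keratin of the infundibulum and sebaceous duct, had reads in 2 of 17 positive and 3 of 13 negative cells of batch 1, and in 1 of 30 and 10 of 25 of batch 2. Its means were 205 and 1695 CPM, then 18.2 and 1564, with ratios of −2.99 and −5.80. Most negative cells had none, so the difference marks a subset of them.

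Gata6, the transcription factor of the upper follicle and sebaceous duct, had no read in the 47 positive cells, and 7 and 36 reads in 2 of 13 and 4 of 25 negative ones. Against a floor of 3 counts per side and batch, negative cells of batch 1 had at least 5.25-fold more and those of batch 2 at least 17.9-fold more. Defb6, a beta-defensin, had means of 608 and 1763 CPM, then 843 and 8968, and Krt17 had 209 and 946, then 26.8 and 273. Without the highest negative cell, Gata6 (−0.30 and −1.48), Defb6 (0.24 and −2.94) and Krt17 (0.19 and −2.21) missed the size in batch 1, whereas Krt79 kept it (−1.71 and −5.43).

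Cells with a Krt79 or Gata6 read made up 2 of 17 positive and 3 of 13 negative cells in batch 1 and 1 of 30 and 10 of 25 in batch 2. With these 16 cells left out, a comparison added after the data had been seen, the upper follicle list had medians of −1.45 and 1.07. Defb6 then had ratios of 0.61 and 5.76. Krt10 (2.27 and 2.69), Krt2 (2.21 and 1.03), Csta1 (3.17 and 3.44), Cstdc5 (1.93 and 1.73) and Krt15 (−3.36 and −2.23) still met the size, so these 5 differences were present among cells without either follicle gene.

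Other follicle and gland lists gave few members. Of 5 considered bulge and germ genes Sox9, a transcription factor of follicle cells, met the size as lower (−1.05 and −1.36) and missed it under 9 of 20 alternatives. Of 3 considered sebaceous genes Fasn, the fatty acid synthase, met it as lower (−1.42 and −1.95) and missed it under 6 of 20 alternatives. Lrig1, the gene behind the lineage label, had 1 read in 1 negative cell. Ly6a, the gene of the sorted surface protein Sca1, was read in 13 of 17 positive and 9 of 13 negative cells and in 26 of 30 and 16 of 25, with ratios of −1.21 and −0.24.

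Clade B serpins, intracellular inhibitors of serine and cysteine proteases, had 5 of 8 considered members above 0 and 1 below 0 in both batches, with medians of 1.25 and 0.76. TMM gave medians of 1.19 and 0.69. Serpinb3b had reads in 9 of 17 positive and 3 of 13 negative cells of batch 1 and in 18 of 30 and 4 of 25 of batch 2. Positive means were 860 and 586.5 CPM and negative means 168 and 154, with ratios of 2.29 and 1.87. Serpinb12 had ratios of 1.32 and 4.48, with 94 reads in 2 negative cells of batch 1 and none in batch 2, where the positive side was at least 78.8-fold higher. Without the highest positive cell its batch 1 ratio was 0.26.

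Wound and stress lists gave few calls. Of 5 considered wound keratinocyte genes Plau, the urokinase activator of plasminogen, met the size as higher (2.36 and 1.15), on 41 against 2 reads and 40 against 3, and Krt17 as lower. Without the highest positive cell of each batch Plau missed the size, at 0.69 and 0.70. Of 8 considered alarmin and S100 genes Defb1, a beta-defensin, met it as lower (−1.17 and −5.17), though at −0.54 in batch 1 without the highest negative cell. None of 13 genes of the NF-kappaB, STAT3 and AP-1 list met it, with 7 below 0 and 1 above 0 in both batches and medians of −0.98 and −0.57. None of 11 interferon and antigen presentation genes met it, with 8 below 0 and none above, and medians of −0.63 and −0.77. TMM gave medians of −0.40 and −0.15 for the former and −0.90 and −0.70 for the latter. Notch genes (5 considered) had no call. Glutathione genes (14 considered) had Gstm5, a glutathione transferase, as lower (−1.17 and −1.62), which it missed under 7 of 20 alternatives, with 0.77 in batch 1 without the highest negative cell. Glycolysis and hypoxia genes (14 considered) had no call.

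Cell cycle genes had lower ratios in batch 1 than in batch 2. The list had medians of −1.46 and −0.04 over 15 considered genes. With reads summed per side and scaled by total reads they were −0.76 and 0.62, and with TMM-scaled sums −0.43 and 0.64. Mcm6, a subunit of the replicative helicase, met the size as lower (−2.82 and −1.05) but missed it under 7 of 20 alternatives, with batch 2 ratios of 0.04 with TMM and −0.51 without the highest negative cell of each batch. Mki67 had ratios of −2.79 and −0.73. Cells with a Mki67 or Top2a read were 2 of 17 positive and 3 of 13 negative, then 9 of 30 and 11 of 25.

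White blood cell markers were at or near 0 on both sides, and the fibroblast and endothelial lists were read through 1 gene each. Ptprc, the surface marker of all white blood cells, had no read in any wound bed cell. No neutrophil, macrophage and Langerhans cell, T cell, or melanocyte and Merkel cell gene was considered. S100a8, which neutrophils and stressed keratinocytes make, had 800 reads in 3 positive cells and 9 in 1 negative cell of batch 1, and none in batch 2. S100a9 had 1 read in all. Any neutrophil list gene was read in 3 of 17, 1 of 13, 0 of 30 and 1 of 25 cells, T cell genes in 1, 0, 4 and 2, and macrophage and Langerhans cell genes in 2, 2, 0 and 1. The summed level of the neutrophil list had a median of 0 in each group and a highest value of 6292 CPM. Sparc, a matrix protein gene of the fibroblast list, was read in 3 of 17, 2 of 13, 14 of 30 and 15 of 25 cells, with ratios of −1.54 and 0.05. Ly6c1, of the endothelial list, was read in 8 of 17, 4 of 13, 18 of 30 and 13 of 25 cells, with ratios of −0.53 and 0.17. Beyond these, Vim had reads in 1 cell and Pecam1 in 2, and Col1a1, Col1a2, Pdgfra, Cdh5 and Kdr were at 0.

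Ranked over all genes by the smaller of both ratios, with reads in at least 25% of the higher side and the same direction after thinning, the 12 highest held Csta1, Krt10 and Cstdc5, and the rest belonged to no list. Slc39a10, a zinc importer, had 296 reads in 5 of 17 positive cells and none in negative cells of batch 1, and 962 reads in 8 of 30 against 3 in 1 of 25 in batch 2. With cells weighted equally the log2 ratios were 4.32 and 3.25, and batch 2 means were 219 and 14.1 CPM. Against the floor, reads per total were at least 43.8-fold higher on the positive side of batch 1. In batch 2 their ratio was 215 (interval 73.3 to 1043), a sum that follows the deepest cells. H60c, a ligand of the NKG2D receptor, was read in 6 of 17 against 1 of 13 cells and 10 of 30 against 1 of 25, with ratios of 2.64 and 4.91. Maf, a transcription factor of differentiating keratinocytes, had ratios of 0.65 and 0.05, and Rora, a nuclear receptor of these cells, had 2.86 and −0.06. Of the other genes ranked highest, 6 (Aasdhppt, Fnta, Vti1b, Ppp6r3, Ammecr1 and Pole4) had ratios between 1.90 and 3.26. Aasdhppt and Fnta missed the size under 2 of 20 alternatives, Vti1b, Ppp6r3 and Pole4 under 5 and Ammecr1 under 6. Without the highest positive cell the batch 1 ratio was 0.93 for Ppp6r3 and 0.28 for Ammecr1. None of the 6 had ratios of at least 1 in both distal batches.

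The 12 lowest included Cst6, Krt15, Zzz3, Rnaseh2a, Rell1, Exoc5, Zfand6, Xiap, Mrpl35, Aamp and Sbno1. Apart from Cst6 and Krt15 their ratios lay between −3.63 and −1.59 and their means were at most 430.5 CPM on each side. Of the 44 named genes that met the size, H60c, Csta1, Krt10, Cstdc5, Krt15 and Krt2 met it under all 20 alternatives. Without the highest cell of the higher side 23 of the 44 missed it, so many of these differences rest on few cells. Serpinb3b missed it once, among cells with at least 20000 reads, and Krt79 once, where cells with its reads were left out. The 20 alternatives, here and above, included some that a gene meeting the main rule could not miss. They were each batch alone, a pseudocount of 1 CPM, and other detection minimums, which do not change a ratio. Counts out of 20 thus overstate how stable a call was.

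The same split of distal cells (26 positive and 55 negative) is a separate set of cells. Of 6596 genes considered there, 227 (3.44%) were higher and 561 (8.51%) lower in positive cells. Of 218 genes higher in the wound bed and considered in both regions, 22 (10.1%) were also higher in distal positive cells, against 3.59% of all 4869 genes considered in both, and 24 (11%) were lower. Of 249 lower genes, 45 (18.1%) were also lower, against 8.4% of all, and 4 (1.61%) were higher. Among the higher genes the same direction thus had 10.1% against 3.59% of all, and the opposite one 11% against 8.4%. Among the lower genes the same direction had 18.1% against 8.4%, and the opposite one 1.61% against 3.59%.

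The stefin and keratin differences recurred one by one. In distal cells Csta1 had ratios of 3.77 and 2.59, Cstdc5 of 4.36 and 4.99, Krt10 of 2.75 and 2.53 and Krt2 of 4.85 and 7.46. The Cstdc5 ratio is again not independent of the classes, because Cstdc5 shares stretches with Stfa1. Stfa3 had 3.38 and 4.11, above its 2.25 and 0.96 in the wound bed. Its means in negative cells were 982 and 3354 CPM in the wound bed and 1051 and 327 in the distal region, so batch 2 of the wound bed stood apart. Serpinb12 (3.86 and 2.78) and Ctsc (2.05 and 1.83) met the size as well. In batch 2 Ctsc rested on 1 of 14 distal positive cells, at 1500 CPM, while 8 of 35 negative cells had a read. F3, the tissue factor that starts clotting (3.05 and 3.99), Acer1, an epidermal ceramidase (4.05 and 2.90), and Sdr16c5, a retinol dehydrogenase (3.38 and 2.24), were among the 22 and were picked after their values were seen.

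Krt79 had no read in any of the 26 distal positive cells and was read in 3 of 20 and 11 of 35 negative ones. Against the floor, its summed reads per total were at least 3739.6-fold and at least 233-fold higher in negative cells. These bounds count reads and do not cover which cells were sampled. Negative means were 1955 and 2080 CPM, with highest cells at 35893 and 24977 CPM. Gata6 had no read in distal positive cells either and was read in 4 of 20 and 5 of 35 negative ones. Krt15 (−2.36 and −2.31), Sox9, Defb1, Defb6, Cst6 and Gstm5 were lower in both distal batches too. Krt17 was not, with 0.76 and −6.85. Cst6 was lower in its mean only. Its reads were present in 6 of 12 positive and 6 of 20 negative cells, then in 9 of 14 and 13 of 35. Median Cst6 was 5.13 and 56.4 CPM in distal positive cells and 0 in negative cells of both batches. The highest negative cells were at 11444 and 172685 CPM. Lrig1 was read in 14 of 55 distal negative and 0 of 26 positive cells. Sprr1a had the opposite sign in distal cells (0.20 and 3.70), with batch 2 reads in 1 of 14 positive and 4 of 35 negative cells. Whether any ratio differed between the regions was not tested.

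**Figure D5:**
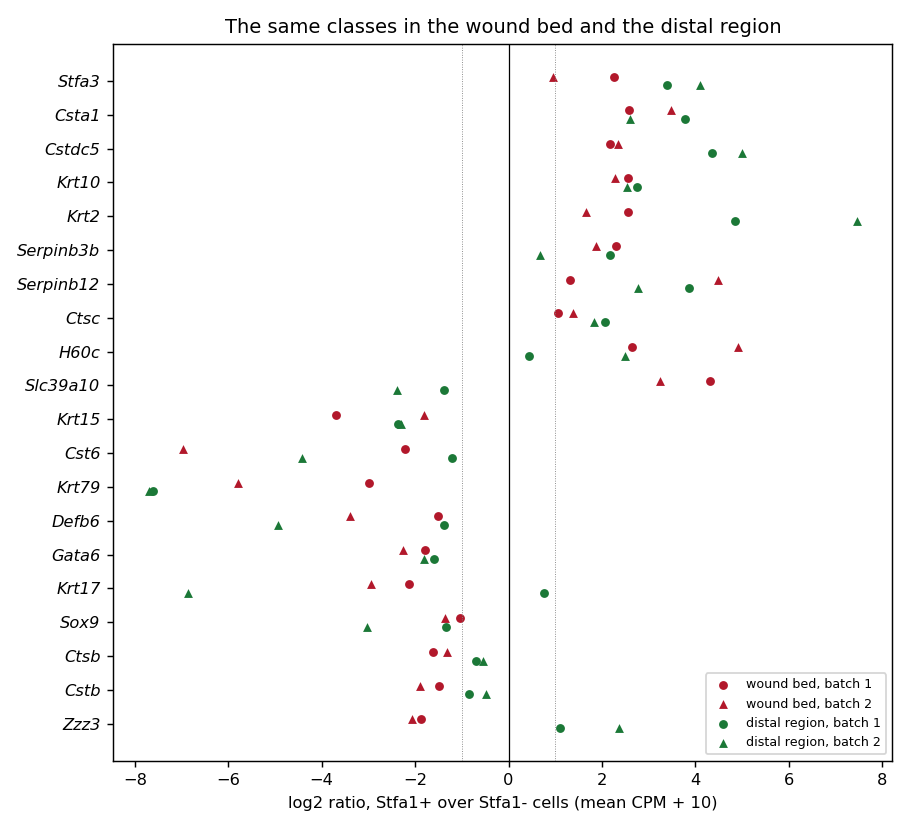
Log2 ratio of positive over negative cells (x axis) for 20 named genes in the wound bed (red) and the distal region (green), with circles for batch 1 and triangles for batch 2; dotted lines mark 1 and −1. Csta1, Cstdc5, Krt10 and Krt2 lie right of 1 in all 4 sets, Krt15, Krt79, Defb6, Gata6 and Cst6 lie left of −1 in all 4, and Slc39a10 and Zzz3 change sides.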

How the data were processed

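The authors deposited raw read counts, whole numbers, for 27003 gene symbols in 250 cells. Per the submitters' processing notes the genome build was mm10 (GRCm38) and the tools included R 4.0.3, Seurat and Salmon 0.13.1. Their roles, any filter on cells and how transcript estimates became whole counts are not given in the sources used here. Estimates divide reads among alike transcripts, which bears on the stefin genes.

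From the counts, CPM per cell was averaged over the cells of a side, in Python 3.11.15 (numpy 2.4.6, pandas 2.3.3, scipy 1.17.1). The pseudocount was 10 CPM, the detection minimum 10% of the cells of 1 side in each batch, and the size a log2 ratio of 1 in both batches. Equal weights were used because a sum of reads follows the deepest cells; sums scaled by TMM (edgeR 4.0.16, R 4.3.3) were an alternative, one of 17 planned. Shares have exact Clopper-Pearson 95% intervals, ratios of 1 to 3 reads exact conditional intervals, and a side without reads a floor of 3 counts for that side and batch. These cover counting error only. Doublets were not called and free RNA was not subtracted, all wound bed cells were kept in the main results, and no 2 of them had identical counts.

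Named genes were the 12 highest and 12 lowest by the smaller batch ratio (read in 25% of the cells of the higher side in each batch, same direction at 10000 reads), list members that met the size, all stefin and cystatin genes with a row, and 14 fixed genes (Ly6a, Lrig1, Gata6, Krt5, Krt14, Krt1, Krt10, Krtdap, S100a8, S100a9, Ptprc, Mki67, Maf and Rora). The 24 gene lists, the classes and the rules were chosen with earlier results of these data known, and 48 list genes had no row. The comparison was tested on simulated data. Coordinates and transcripts came from GENCODE M21 and promoters from RefSeq (GRCm38.p6). Some genes that met these rules are not reported here.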

Additional observations from a re-analysis of the deposited data

Results flagged for a closer look

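Slc39a10 and Zzz3 had one direction in the wound bed and the other in the distal region, in both batches of each, and the difference between the regions was not tested. Slc39a10, a zinc importer, had log2 ratios of positive over negative cells of 4.32 and 3.25 in the wound bed and of −1.37 and −2.38 in distal cells, a distal mean of −1.88. Zzz3, a chromatin reader subunit, had −1.87 and −2.06 in the wound bed and 1.10 and 2.36 in distal cells, a distal mean of 1.73. Reads of Slc39a10 came from 5 of 17 and 8 of 30 positive wound bed cells, and those of Zzz3 from 5 of 13 and 10 of 25 negative ones. Zzz3 was also read in 6 of 17 and 7 of 30 positive wound bed cells. In distal cells Slc39a10 was read in 3 of 12 positive and 4 of 20 negative cells, then in 2 of 14 and 6 of 35. Distal Zzz3 was read in 6 of 12 and 7 of 20, then in 6 of 14 and 12 of 35. The ratios thus rest on levels in few cells.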

How the results depend on the processing

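Counts of genes past the size depended on most settings, against 251 higher and 278 lower genes in the main comparison. Averaging log2 values gave 35 and 17, a pseudocount of 1 CPM 451 and 474, one of 50 CPM 48 and 50, and a detection minimum of 25% 86 and 71. Batch 1 alone gave 1254 and 1835 and batch 2 alone 1310 and 1219. TMM gave 179 lower genes, 10 or more Stfa1 reads against 0 gave 433 lower, and classing after thinning gave 149 higher. The higher share of called genes was 47.4% in the main comparison, 67.7% with TMM, 36.5% with 10 or more reads, 32.8% with classes set at 100 CPM of Stfa1 and 34.3% with classes set after thinning. Of the genes higher in the main comparison 170 were also higher with TMM, and 122 of the lower ones lower.

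Genes higher in both regions (22) were 36 with TMM, 43 and 8 with pseudocounts of 1 and 50, 12 at 25% detection, 281 and 236 with batch 1 or 2 alone, and 40 without cells with a Krt79 or Gata6 read, a setting chosen after seeing the data. Genes lower in both (45) were 6 with averaged log2 values, 89 and 8 with pseudocounts of 1 and 50, 9 at 25% detection, 26 with thinned reads and 26 when classed after thinning, 68 in cells with at least 20000 reads, 110 with 10 or more Stfa1 reads, 77 with 100 CPM, and 626 and 298 with batch 1 or 2 alone.

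List medians are given here as the mean of both batches. The stefin and cystatin median (1.09) was 0.59 with TMM, 0.51 with summed reads, 0.33 with averaged log2 values, 1.75 and 0.46 with pseudocounts of 1 and 50, 0.69 at 25% detection, 0.84 in cells with at least 20000 reads, 0.85 in cells with at least 1500 genes, 0.23 with 10 or more Stfa1 reads and 1.35 without mitochondrial reads. The upper follicle median (−2.47) was −1.07 with averaged log2 values, −3.44 and −1.63 with pseudocounts of 1 and 50, −4.60 when classed after thinning, −2.95 with 1500 genes, −3.78 with 10 or more reads and −0.19 without cells with a Krt79 or Gata6 read. The basal median (−0.46) turned to 0.059 with TMM and 0.094 with thinned reads. It was −0.14 with summed reads, −0.60 with averaged log2 values, −0.41 with a pseudocount of 50, −0.59 when classed after thinning, −0.22 with 20000 reads, −1.49 with 10 or more reads, −0.69 with 100 CPM, −0.67 without the deepest cells, −0.66 without cells with a Krt79 or Gata6 read and −0.92 with Krt10 reads. The suprabasal median (0.18) turned to −0.13 with summed reads and −0.44 in batch 1 alone. The share of positive cells was 33.3% and 32.7% at 10 or more reads.

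Over 64 named genes and 1280 values, 942 stayed within the spread of the batches, 334 moved by more, and 4 turned: without cells with a Krt79 or Gata6 read Calml3 had 1.43, Sprr1a 1.20, Defb6 3.18 and Krt17 0.37. The 942 include values from settings that leave a gene's ratio unchanged, such as another detection minimum. The cause of none of these shifts was tested, other than that fewer genes or cells enter a stricter setting. Depth limits genes read in few cells. No paired analysis was possible because cells carry only accession-order numbers within a region and batch, and each comparison was made within a batch.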
